A study of Sus scrofa with 22 samples.

Results

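The genes described are those of the cytosolic ribosome: the proteins of the large and small subunits, measured in the small intestine of piglets given chemotherapy. They were chosen by name, not by their values: a probe counted when its accession mapped to a pig symbol of the form RPL or RPS with a digit, or to RPLP0, RPLP1, RPLP2 or RPSA, with the RPS6K kinases left out. The pig annotation holds 84 such symbols, and 37 of them had a named probe, out of 35866 genes and unnamed array identifiers (features) in all. The other 47, among them RPLP1, RPS6, RPS19 and RPL4, are not described. Of the 37 genes, 21 belong to the large subunit (RPLP0, RPLP2, RPL3, RPL5, RPL6, RPL7, RPL7L1, RPL10, RPL10A, RPL11, RPL13A, RPL14, RPL22, RPL23, RPL26L1, RPL27, RPL29, RPL30, RPL32, RPL35 and RPL36AL). The remaining 16 belong to the small subunit (among them RPSA, RPS3, RPS3A, RPS4X, RPS10, RPS12, RPS13, RPS15, RPS16, RPS18, RPS20, RPS21, RPS23, RPS26 and RPS28). Of the large-subunit names 3, RPL7L1, RPL26L1 and RPL36AL, are relatives of a core protein rather than the core protein itself.

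The animals were 22 crossbred (Large White × Danish Landrace) specific-pathogen-free piglets, 3 days old per the labels, which do not say at which point of the study. One experiment gave doxorubicin (DOX), which blocks topoisomerase II, to 6 piglets as a single dose and left 6 untreated; a separate experiment gave busulfan plus cyclophosphamide (BUCY), which alkylate DNA, to 5 piglets and left 5 untreated. Each piglet's RNA, labelled with Cy5, was hybridised to a pig array together with a pool of all samples labelled with Cy3, so each value compares a piglet with that pool, as a log2 ratio. The labels leave out doses, the time of sampling, litters and the part of the small intestine.

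A ribosome is built from ribosomal RNA and one copy of most ribosomal proteins, so a cell makes the proteins in matched amounts, from very abundant messenger RNAs. Their messengers carry a tract at the 5′ end through which growth signalling sets how much of them is translated, and the array reads messenger level only. Besides their place in the ribosome, several members act on their own: RPL5, RPL11 and RPL23 can bind MDM2, the inhibitor of p53, when ribosome assembly is disturbed, and RPL13A can leave the ribosome to silence inflammatory messengers. In the small intestine, ribosome production is greatest in the dividing cells of the crypts, the cells that cytotoxic drugs hit first.

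All 37 genes were well above background on all 22 arrays, and all were tested among 24767 features. Their mean log2 Cy5 signal ran from 12.6 to 18.2 with a median of 17.0, against a median of 7.98 over all features tested, and 32 of the 37 were among the brightest 1% of features. RPLP2, RPS20 and RPL32 were near the top of that range, and RPL26L1 was the dimmest member; 0 spots were saturated. Signals of different probes are not levels of different genes, so they only show that the family was measured where the array is bright. Between 59.6% and 72.5% of probes stood well above background on an array, with the lowest share on BUCY-treated array 3. All 10 enterocyte markers that the array names were among the features tested. The number of arrays limits the precision of every value, and in whole tissue fewer cells of a type and less RNA per cell cannot be told apart.

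Across piglets the family moved little on the scale of the deposited table. That scale matches a normalisation that brings the bright probes of each array to the common level. Small array medians are therefore set in part by the scaling. With arrays only centred on their medians, the family median of the BUCY comparison was -0.63, as given below. The median ratio of the 37 genes on an array was 0.07 ± 0.05 (log2, SD, n = 6) after DOX, -0.01 ± 0.12 (n = 6) in the untreated piglets of the DOX experiment, -0.07 ± 0.11 (n = 5) after BUCY and -0.19 ± 0.10 (n = 5) in the untreated piglets of the BUCY experiment. The untreated BUCY arrays lay between -0.32 and -0.07, and 5 to 12 of the 37 genes on them were above the pool. The DOX-treated arrays lay between -0.01 and 0.14, with 18 to 28 genes above the pool. The group means of RPL7L1 spanned 0.999, those of RPL13A 0.92, RPL23 0.76, RPL5 0.73, RPL26L1 0.66, RPS12 0.65 and RPLP2 0.62. The heatmap shows RPL13A and RPL5 high in the untreated BUCY piglets (group means 0.49 and 0.27), where most other genes are low. RPS28 and RPS15 also stood above the pool there, at group means of 0.31 and 0.21.

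**Figure D1:**
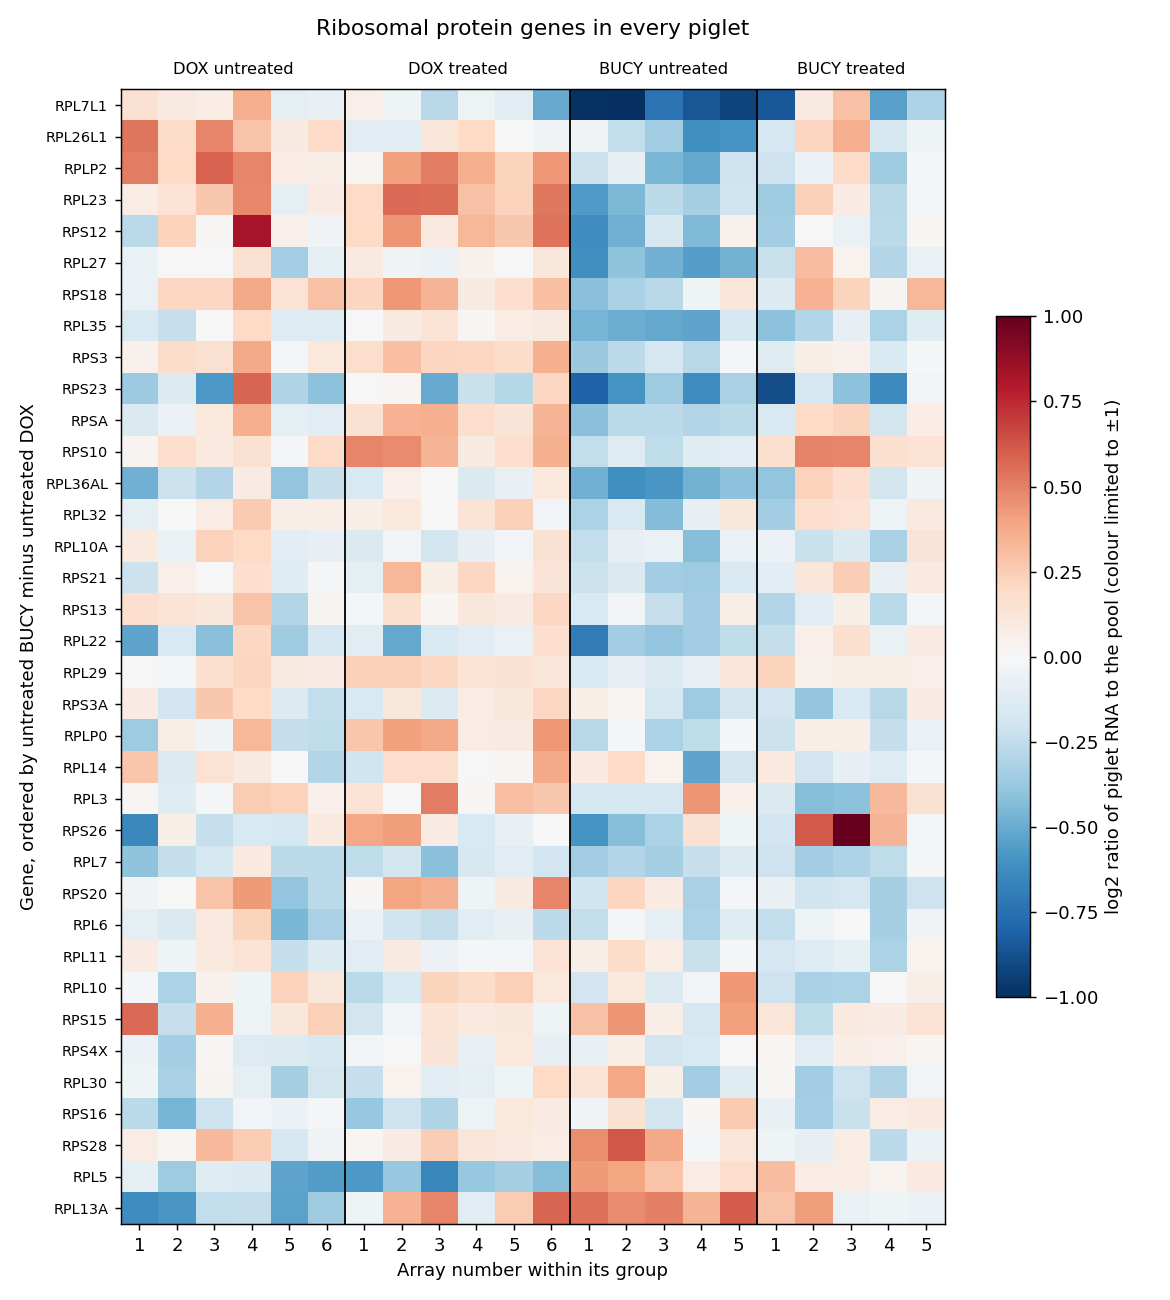
Heatmap of the log2 ratio to the pool for 36 ribosomal protein genes (rows) in each of the 22 piglets (columns, by group and array number), ordered by the difference between the untreated groups. RPL7L1 stands at -1.07 to -0.74 in the 5 untreated BUCY piglets, and RPL13A at -0.62 to -0.24 in the 6 untreated DOX piglets, while most rows stay near the pool.

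The DOX comparison asks how a single dose of this drug changed the messengers. RPL13A alone rose: 1 of 37 genes (2.70%) passed limma's adjusted p of 0.05, against 0.892% of all features tested. Most members were slightly above their controls (30 of 37, median log2 change 0.08, against 0.01 over all features), and 15 of the 16 small-subunit genes were on that side with a median of 0.12. That tilt depended on the scaling: the family median was 0.17 after loess normalisation of the scanner signals and 0.00 after median centring, where 19 genes were higher and 18 lower.

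RPL13A, NCBI gene 780432, codes for a large-subunit protein that, once phosphorylated, joins a complex that blocks translation of inflammatory messengers, and it is a common reference gene for quantitative PCR. Its log2 ratios after DOX were -0.11 at the lowest, 0.30 at the median and 0.58 at the highest, and in the untreated piglets -0.62, -0.44 and -0.24. The lowest treated piglet was thus above the highest control, and the groups did not overlap, which held for 2.55% of all features (1.26% higher, 1.28% lower) and for no other member. The log2 change was 0.68 (SE 0.12, 1.60-fold, adjusted p = 0.00416, n = 6 and 6). Both probes of the gene gave it, at 0.66 and 0.68. Within the 3 slides that held both groups the difference was 0.56, 0.59 and 0.48, and on the 2 scan days 0.63 and 0.62. Leaving out each array in turn kept it between 0.62 and 0.75 with adjusted p up to 0.0164. Under median centring it was 0.52 with SE 0.26 and adjusted p = 0.572.

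The stalk proteins, which recruit elongation factors to the large subunit, did not pass the test. RPLP0, the base of the stalk, was at 0.07 to 0.43 (median 0.33) after DOX and -0.35 to 0.34 (median -0.14) in controls, a log2 change of 0.36 (SE 0.11, adjusted p = 0.139). A single control, untreated array 4, reached into the treated range, and without it RPLP0 passed, which took the count of members called to 2 (the share of features called in that fit is not given here). That control had the highest family median of its group, 0.20, against -0.13 to 0.07 in the others. The result also rests on the probe: over 13 RPLP0 probes the median change was 0.05, and 8 of them were above 0. RPLP2, the protein that caps the stalk, was 0.33 ± 0.18 after DOX and 0.32 ± 0.24 without, a change of 0.01 (95% interval -0.24 to 0.25).

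Among the 5S particle and the MDM2-binding proteins, RPL5 changed by -0.15 (adjusted p = 0.537), RPL11 by 0.02 (adjusted p = 0.943) and RPL23 by 0.23 (adjusted p = 0.411). RPSA, the small-subunit protein also known as the precursor of the laminin receptor, was at 0.13 to 0.37 after DOX and -0.15 to 0.36 in controls (change 0.24, adjusted p = 0.267). The lowest changes belonged to RPL26L1 at -0.28 (adjusted p = 0.292), RPL7L1 at -0.24 (adjusted p = 0.545) and RPL5; the highest after RPL13A and RPLP0 was RPS26, at 0.28 (adjusted p = 0.566), a small-subunit protein at the channel where the messenger leaves. The 95% intervals of all members other than RPL13A lay within -0.54 and 0.66. T and NK cell markers were lower after DOX in 14 of 14 tested genes, 3 past the threshold, with mean levels of -0.64 to 0.40 against 0.22 to 0.53 in controls; their part in the change of RPL13A was not tested.

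**Figure D2:**
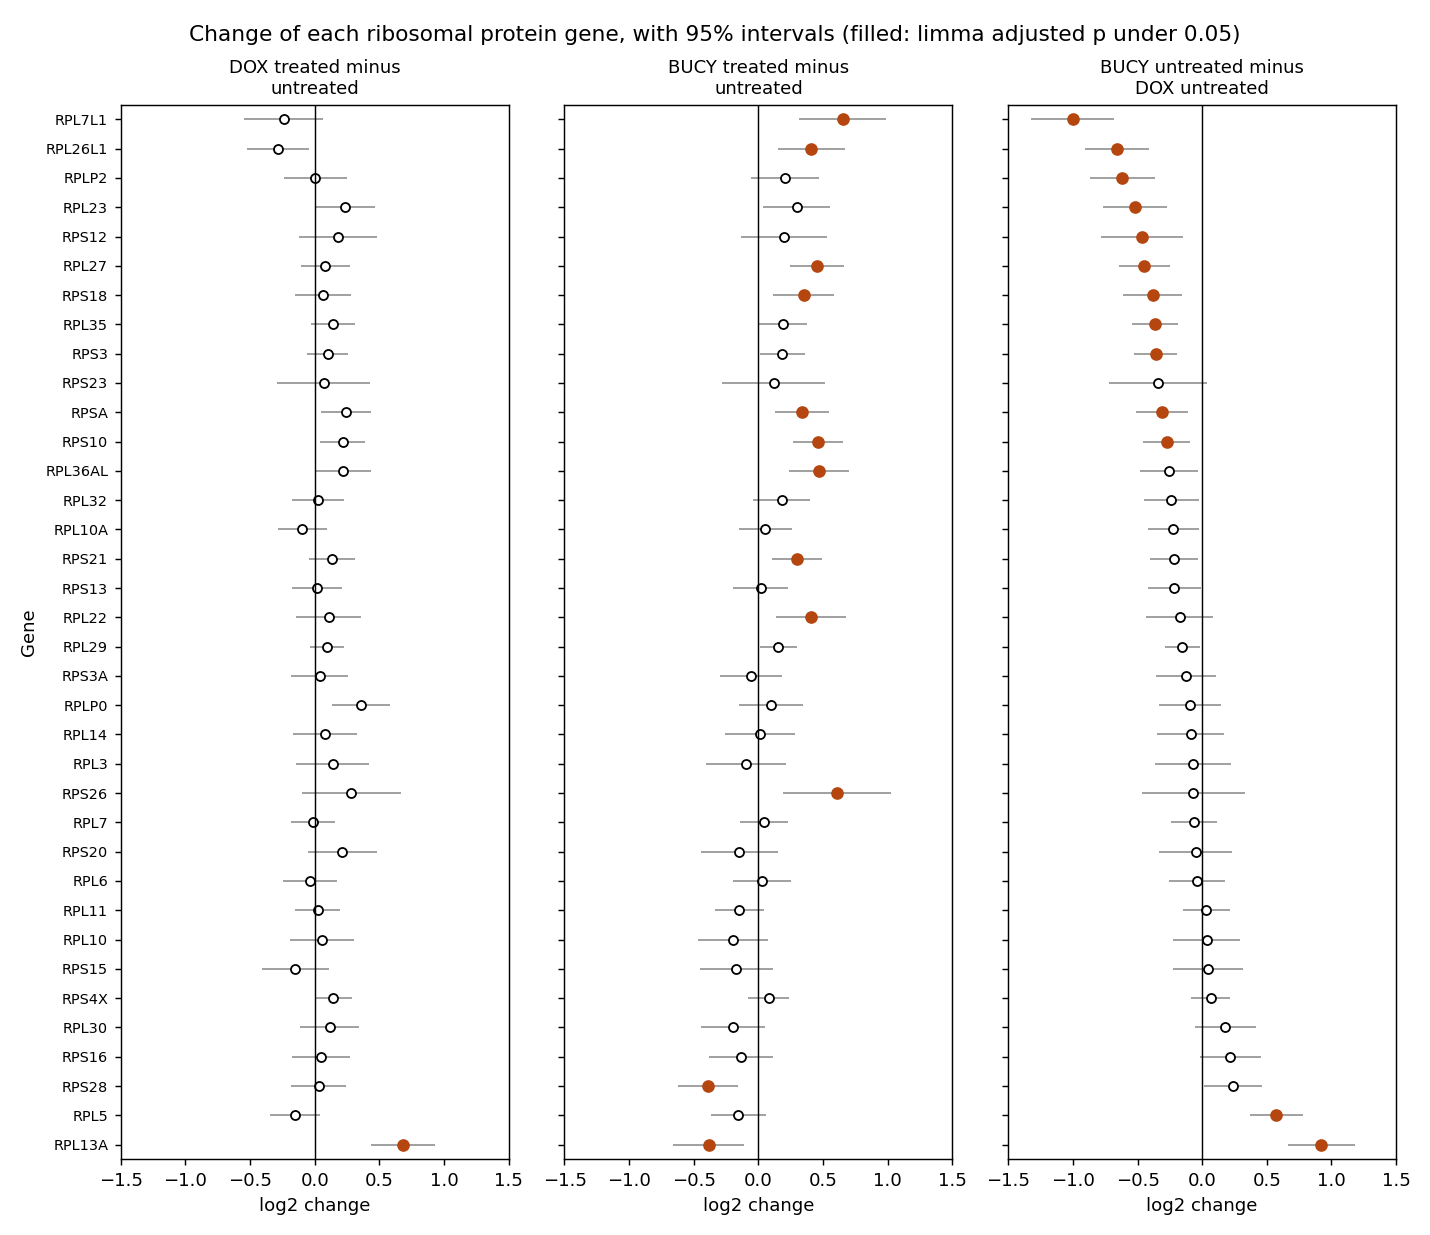
log2 change of 36 of the genes with its 95% interval in 3 comparisons (the DOX effect, the BUCY effect, and untreated BUCY minus untreated DOX); filled points passed limma's adjusted p of 0.05. In these panels 1, 12 and 13 genes are filled; the side on which most members lie in the BUCY panel, above 0, turned to below 0 under median centring (35 of all 37 genes).

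The BUCY comparison puts the question to the alkylating pair. With the deposited ratios 12 of 37 genes (32.4%) changed, against 18.0% of all features tested: 10 rose (background 8.72%) and 2 fell (background 9.26%). The genes that rose were the nucleolar relative RPL7L1, the paralogs RPL36AL and RPL26L1, the large-subunit proteins RPL27 and RPL22, and the small-subunit proteins RPS26, RPS10, RPS18, RPSA and RPS21. RPL13A and RPS28 fell. The family median was 0.12, with 26 genes higher and 11 lower, against 0.00 over all features. Under median centring the same median was -0.63 with 35 genes lower, while the median of all features moved to -0.12; relative to that shift the family was at -0.50, and the 4 genes called, RPL10, RPL30, RPL13A and RPS28, were all lower. So which way most of the family moved with BUCY was not settled by these arrays, and the values that follow are on the scale of the deposited table.

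Of the 10 genes that rose 6 did not overlap between the groups (16.2% of members, against 6.67% of features without overlap, 3.40% higher and 3.27% lower): RPS10, RPSA, RPL27, RPS21, RPL36AL and RPL22. RPS10 had the lowest adjusted p of these 6. This small-subunit protein sits on the head of the subunit beside the messenger and is one of the genes mutated in Diamond-Blackfan anaemia. Its ratios were 0.16, 0.50, 0.49, 0.16 and 0.14 after BUCY and -0.25, -0.13, -0.26, -0.12 and -0.10 in the 5 controls. Every treated piglet lay above every control, and arrays 2 and 3 lay highest. The log2 change was 0.46 (SE 0.09, 1.38-fold, adjusted p = 0.0021), and all 6 RPS10 probes were higher, by 0.24 to 0.69. It was 0.42, 0.45 and 0.24 within the 3 slides that held both groups. RPS10 was also the member called when only these groups were fitted and when arrays 2 and 3 were left out; median centring put it at -0.19 (adjusted p = 0.537).

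RPL7L1, which works on the precursor of the large subunit in the nucleolus and resembles RPL7, had the largest rise. Its ratios after BUCY were -0.85, 0.09, 0.29, -0.54 and -0.31, and in controls -0.99, -1.07, -0.74, -0.85 and -0.93. Treated arrays 2 and 3 stood well clear of the controls, whereas treated array 1 lay among them. The log2 change was 0.65 (SE 0.16, 1.57-fold, adjusted p = 0.0093), with 0.24 to 0.65 over 3 probes. It was -0.11 on slide 3, 0.73 on slide 5 and 0.62 on slide 7, each with 1 or 2 treated piglets against 1 control. RPL7 itself was at -0.23 and -0.27 in the BUCY groups (change 0.04, adjusted p = 0.786).

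RPL27, a large-subunit protein, was at -0.22, 0.31, 0.03, -0.29 and -0.07 after BUCY and -0.61, -0.40, -0.48, -0.55 and -0.47 in controls. All treated piglets were above all controls (change 0.46, SE 0.10, adjusted p = 0.00446, 1 probe). RPL36AL, a copy of the large-subunit protein RPL36A, was at -0.40, 0.23, 0.17, -0.18 and -0.03 against -0.48, -0.61, -0.59, -0.47 and -0.41, again without overlap. Its change was 0.47 (SE 0.11, adjusted p = 0.00734). RPL22, an RNA-binding large-subunit protein, went from -0.41 to -0.00 in the group means (change 0.41, adjusted p = 0.0367), RPSA from -0.30 to 0.03 (0.34, adjusted p = 0.0255), and RPS21 from -0.24 to 0.06 (0.30, adjusted p = 0.0306). The 3 RPS21 probes lay within 0.29 and 0.32, whereas the 6 RPSA probes ran from -0.10 to 0.61, so the RPSA value depends on the probe. Over 19 alternatives other than leaving out 1 array, the RPL22 result did not stay the same in 12 and that of RPSA in 9. For RPS21 this number was 7, for RPL36AL 4 and for RPL27 3.

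RPS26 had the widest spread. Its ratios were -0.19, 0.61, 1.09, 0.34 and -0.01 after BUCY and -0.59, -0.42, -0.31, 0.16 and -0.04 in controls, so the groups overlapped and the rise came mostly from arrays 2 and 3 (change 0.61, SE 0.20, adjusted p = 0.0395). RPS18, at the top of the head of the small subunit, changed by 0.35 (adjusted p = 0.0384) with overlap. RPL26L1, a copy of RPL26, changed by 0.41 (SE 0.12, adjusted p = 0.0284); its ratios were -0.17, 0.22, 0.37, -0.16 and -0.04 against -0.03, -0.24, -0.34, -0.61 and -0.59.

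In the other direction, RPS28, a neighbour of RPS26 at the messenger exit, was at -0.04, -0.08, 0.07, -0.26 and -0.06 after BUCY and 0.47, 0.62, 0.38, -0.02 and 0.12 in controls. One control, array 4, lay inside the treated range. The change was -0.39 (SE 0.11, 1.31-fold lower, adjusted p = 0.0202), and on the Cy5 signal alone it was 0.15 (adjusted p = 0.531). RPL13A was at 0.29, 0.42, -0.06, -0.04 and -0.06 against 0.55, 0.47, 0.50, 0.34 and 0.61, where treated array 2 lay above control array 4. It fell by 0.39 on the log2 scale (SE 0.13, adjusted p = 0.0455), the opposite side from its change with DOX. The next lowest changes, RPL30 and RPL10 at -0.20, did not pass (adjusted p = 0.255 and 0.305).

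The stalk and the MDM2-binding proteins did not pass either. RPLP0 changed by 0.10 (adjusted p = 0.598) on its brightest probe and by -0.26 at the median of its 13 probes, RPLP2 by 0.21 (adjusted p = 0.269), RPL5 by -0.16, RPL11 by -0.15 and RPL23 by 0.30 (adjusted p = 0.305, 0.266 and 0.0988).

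How many genes passed with BUCY rested on a few arrays. The count of 12 was 6 without treated array 2 and 5 without treated array 3, and it was 6, 7 and 7 without control arrays 1, 2 and 3. The share of features called in those fits is not given here, so a loss particular to the family cannot be read from them. The count was 1 (2.70%, against 4.59% of features in that fit) without treated arrays 2 and 3 together. It was also 1 (2.70%, against 3.09%) when the DOX groups were kept out of the fit. It was 5 (13.5%, against 9.22%) with slide as a block, 3 (8.11%, against 5.76%) without the 6 arrays with a suffixed title and 4 (10.8%, against 13.1%) under median centring. Treated array 2 was the only array on slide 4, so with slide as a fixed block it adds nothing to the BUCY comparison. That fit is therefore not a check of slide alone. The calls of RPL7L1, RPS10, RPL27 and RPL36AL held in each of the 22 fits without 1 array, but with slide as a fixed block RPL7L1 was at 0.54 with adjusted p = 0.0888. Each other call ended in some. RPSA was lost without control array 1 or treated array 2 or 3 (0.29 to 0.31), RPS28 without control array 1 or 2 (-0.35 to -0.31), and RPL26L1 without treated array 2 or 3 or control array 4 or 5 (0.33 to 0.36). RPS21 was lost without treated array 2 or 3 or control array 3 or 4 (0.25 to 0.28). RPS26, RPS18 and RPL22 were lost in 6 fits each, without control array 1, 2 or 3, treated array 2 or 3, and treated array 4 (RPS26) or 5 (the other genes), at 0.43 to 0.62, 0.29 to 0.33 and 0.33 to 0.42. RPL13A was lost in 12, without BUCY control array 1, 2, 3 or 5, BUCY-treated array 3, 4 or 5, DOX-treated array 2 or 5, or DOX control array 2, 5 or 6, at -0.39 to -0.34.

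**Figure D3:**
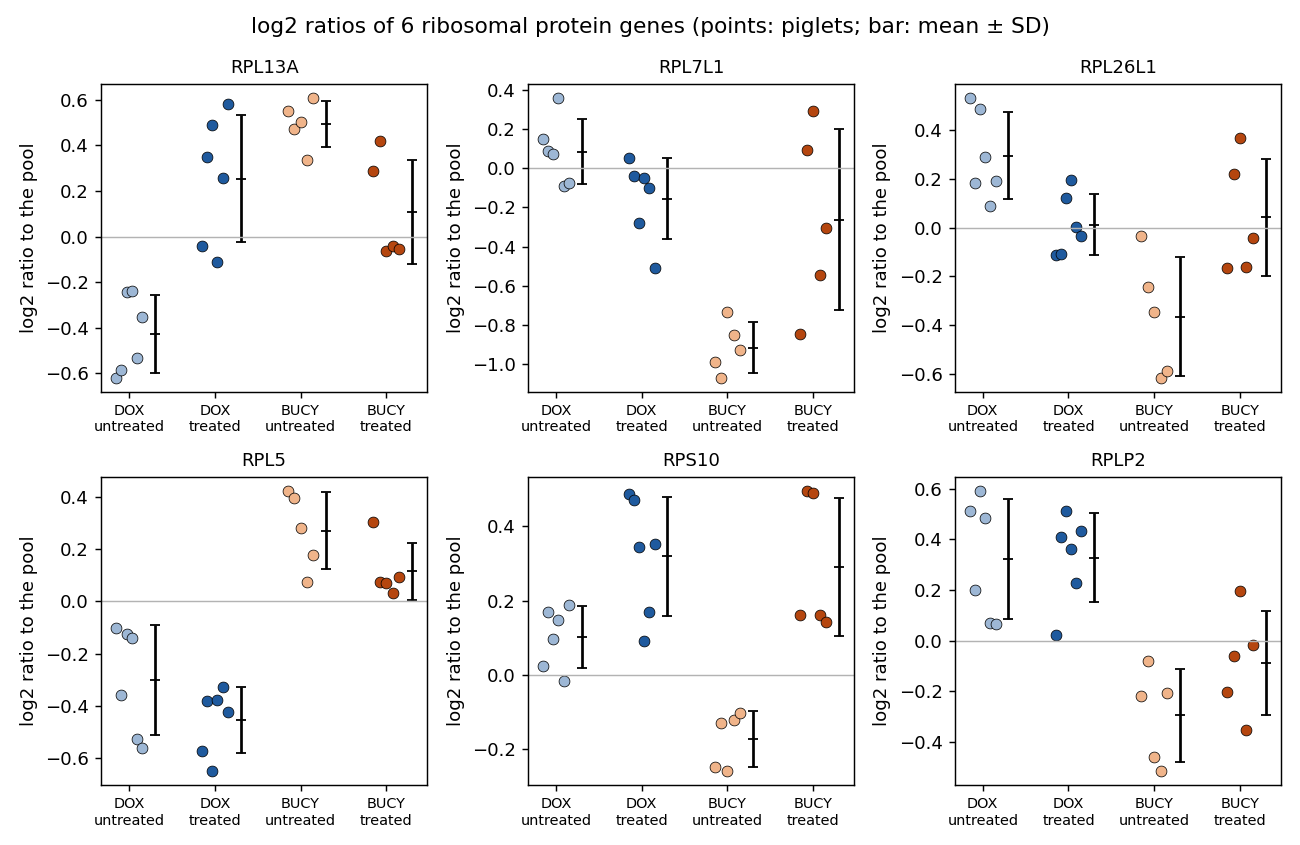
log2 ratios to the pool of RPL13A, RPL7L1, RPL26L1, RPL5, RPS10 and RPLP2 in the 4 groups; points are piglets and bars are the mean ± SD (n = 6, 6, 5 and 5). RPL13A is lowest in the untreated DOX piglets and highest in the untreated BUCY piglets, RPL7L1 and RPL26L1 the reverse, and RPL5 separates the 2 experiments whatever the treatment.

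Whether the drugs differed in their effect was tested as the BUCY effect minus the DOX effect, which draws on all 4 groups, so its values are not independent of those above. The family median of the difference was 0.06, with 22 genes higher and 15 lower, and it turned to -0.61 under median centring. Of the 37 genes 3 passed (8.11%, against 5.41% of features), 2 higher (background 2.87%) and 1 lower (background 2.54%). RPL13A differed most: it was 0.68 higher with DOX and 0.39 lower with BUCY, a difference of -1.07 (SE 0.18, adjusted p = 0.00195). RPL7L1 differed by 0.89 (SE 0.22, adjusted p = 0.0196) and RPL26L1 by 0.69 (SE 0.17, adjusted p = 0.0193), both lower with DOX, without passing there, and higher with BUCY. The means after BUCY and after DOX were 0.11 and 0.25 for RPL13A, -0.26 and -0.15 for RPL7L1 and 0.04 and 0.01 for RPL26L1. In the untreated BUCY and DOX groups they lay further apart, at 0.49 and -0.43, -0.92 and 0.08, and -0.37 and 0.29. Each drug was given in 1 experiment, so a difference of the drugs and one of the experiments' baselines cannot be told apart. The next members on each side were RPL27 at 0.37 (adjusted p = 0.12) and RPS28 and RPS20 at -0.42 and -0.36 (adjusted p = 0.113 and 0.317). For RPL5 the difference was -0.00 with a 95% interval of -0.29 to 0.29, and for RPLP2 it was 0.20 (-0.16 to 0.56). The 3 calls held in each of the 22 fits without 1 array. With slide as a fixed block the RPL7L1 difference was 0.82 with adjusted p = 0.0852, and the other 2 held. Under median centring and without the 6 suffixed arrays 0 of the 37 passed, against 0.42% and 1.25% of features. Without BUCY-treated arrays 2 and 3, or without slide 5, RPL13A remained as the 1 gene called (2.7%, against 2.66% and 3.44% of features).

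The untreated piglets of the separate experiments differed in 14 genes on the scale of the deposited table, beside 12 called with BUCY and 1 with DOX. The shares of all features stood in the same order, at 23.1%, 18.0% and 0.892%. After loess alone the counts were 6, 10 and 1 (features 25.2%, 17.3% and 0.868%). Under median centring they were 2, 4 and 0 (features 15.5%, 13.1% and 0.359%). The comparison of the untreated groups shares its controls with the DOX and BUCY comparisons, so values are set side by side and nothing is read from their likeness. In untreated BUCY piglets relative to untreated DOX piglets 14 of 37 genes (37.8%) passed, against 23.1% of features; 12 were lower (background 10.8%) and 2 higher (background 12.2%). The family median was -0.17, with 28 genes lower and 9 higher, against 0.03 over all features, and it stayed below 0 under each normalisation tried, between -0.26 and -0.03. The split of calls did not stay: after loess of the scanner signals 3 were higher and 3 lower, and under median centring 0 higher and 2 lower. In those fits the family's share of calls lay below that of all features, 16.2% against 25.2% after loess and 5.41% against 15.5% under median centring. No overlap between the groups was seen for 9 members (24.3%, against 18.0% of features), 2 higher (background 9.34%) and 7 lower (background 8.67%).

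The 2 genes that were higher were RPL13A and RPL5. RPL13A was at 0.49 ± 0.10 in the untreated BUCY piglets and -0.43 ± 0.17 in the untreated DOX piglets, a log2 change of 0.92 (SE 0.12, 1.90-fold, adjusted p = 1.67e-05). No control of one experiment came near a control of the other: the lowest value on the BUCY side was 0.34 and the highest on the DOX side -0.24. RPL5, NCBI gene 100135671, which carries the 5S ribosomal RNA into the large subunit, was at 0.42, 0.40, 0.28, 0.07 and 0.18 in the BUCY controls. In the DOX controls it ran from -0.56 over a median of -0.25 to -0.10. These groups did not overlap either, and the change was 0.57 (SE 0.10, 1.49-fold, adjusted p = 0.000208), with all 18 RPL5 probes higher, by 0.48 to 0.65. Treated piglets kept the same side of each experiment, at 0.03 to 0.31 after BUCY and -0.65 to -0.33 after DOX. Its partner in the 5S particle, RPL11, was at 0.02 and -0.02 in the 2 control groups (change 0.03, adjusted p = 0.85). Over 19 alternatives other than leaving out 1 array, RPL5 ran from 0.34 to 0.67 with limma adjusted p up to 0.356. RPL13A ran from 0.69 to 0.96 with adjusted p up to 0.0982. Each of these 2 calls was lost in 1 alternative.

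Lowest of all was RPL7L1. It was at -1.07 to -0.74 in the BUCY controls and -0.09 to 0.36 in the DOX controls, a log2 change of -0.999 (SE 0.155, adjusted p = 7.03e-05, 3 probes between -1.01 and -0.91). RPL26L1 followed at -0.66 (SE 0.12, adjusted p = 0.000347), with -0.61 to -0.03 against 0.09 to 0.53 and 4 probes between -0.76 and -0.64. RPL7L1 and RPL26L1 passed under each normalisation tried, at -1.34 and -1.01 under median centring, and over all 19 alternatives other than leaving out 1 array their adjusted p went up to 0.00316 and 0.0177.

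The stalk protein RPLP2 was at -0.22, -0.08, -0.46, -0.51 and -0.21 in the BUCY controls, and from 0.07 over a median of 0.34 to 0.59 in the DOX controls. The change was -0.62 (SE 0.12, 1.53-fold lower, adjusted p = 0.000796) without overlap, measured by 1 probe, and -0.26 (adjusted p = 0.239) after loess alone. RPLP0 did not move with it: -0.18 ± 0.15 against -0.08 ± 0.25 (change -0.09, adjusted p = 0.639). RPL23, which can bind MDM2, was lower, at -0.52 (adjusted p = 0.00266), RPL27 by -0.45 (adjusted p = 0.00177) and RPL35, at the exit of the peptide tunnel, by -0.36 (adjusted p = 0.00374). On the small subunit, RPS3, at the messenger entry and also a DNA repair protein, was lower, at -0.36 (adjusted p = 0.00196), RPS12 by -0.47 (adjusted p = 0.0295) and RPS18 by -0.38 (adjusted p = 0.0143). RPSA and RPS10 were lower, at -0.31 and -0.27 (adjusted p = 0.0225 and 0.028). After loess alone the calls of RPLP2, RPL23, RPL35, RPS3, RPS12, RPS18, RPSA and RPS10 were all lost, RPS3 at -0.04 (adjusted p = 0.829) and RPL23 at -0.32 (adjusted p = 0.0803), while RPL27 held at -0.41 (adjusted p = 0.00135). RPS10 was lost in 5 of 22 fits without 1 array (DOX control 2, 4 or 6, BUCY control 1 or 3, at -0.26 to -0.25), RPS12 in 5 (DOX control 2 or 4, BUCY control 1, 2 or 4, at -0.45 to -0.33). RPSA was lost in 2 (BUCY control 1 or DOX control 4, at -0.29 to -0.24).

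Experiment and housing or time of the animals cannot be told apart here, since each control group belongs to 1 experiment. Slides could be separated in part: within the 2 slides that held controls of both, the family median was -0.23 on slide 2 and 0.03 on slide 7. RPL13A was 0.75 and 1.05 on those slides, RPL7L1 -1.10 and -0.85, RPL26L1 -0.63 and -0.73, and RPL5 0.53 and 0.72. RPLP2 was -0.74 and -0.28. The direction of these 5 genes was the same on both slides. The family median was on different sides on the slides, and on the 2 scan days that held both groups it was -0.17 and -0.11. Within slides the family median was 0.07, 0.01 and -0.13 for DOX (slides 1, 2 and 6) and 0.06, 0.21 and 0.09 for BUCY (slides 3, 5 and 7).

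The scaling moved the values of this family. The plot of family medians by normalisation sets the values side by side. Loess brings the ratio of bright probes on each array to the common level, and median centring does not. With BUCY the family median was 0.12 in the deposited table, 0.05 after loess alone and -0.63 after median centring. Between the untreated groups these were -0.17, -0.03 and -0.26, and with DOX 0.08, 0.17 and 0.00. On every scale RPL7L1 and RPL26L1 lay above the family median in the BUCY comparison, by 0.52 to 0.70 and 0.29 to 0.50, and RPL13A lay below it, by -0.52 to -0.23. In the untreated comparison RPL13A lay above the family median by 0.89 to 1.11 and RPL5 by 0.50 to 0.75.

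**Figure D4:**
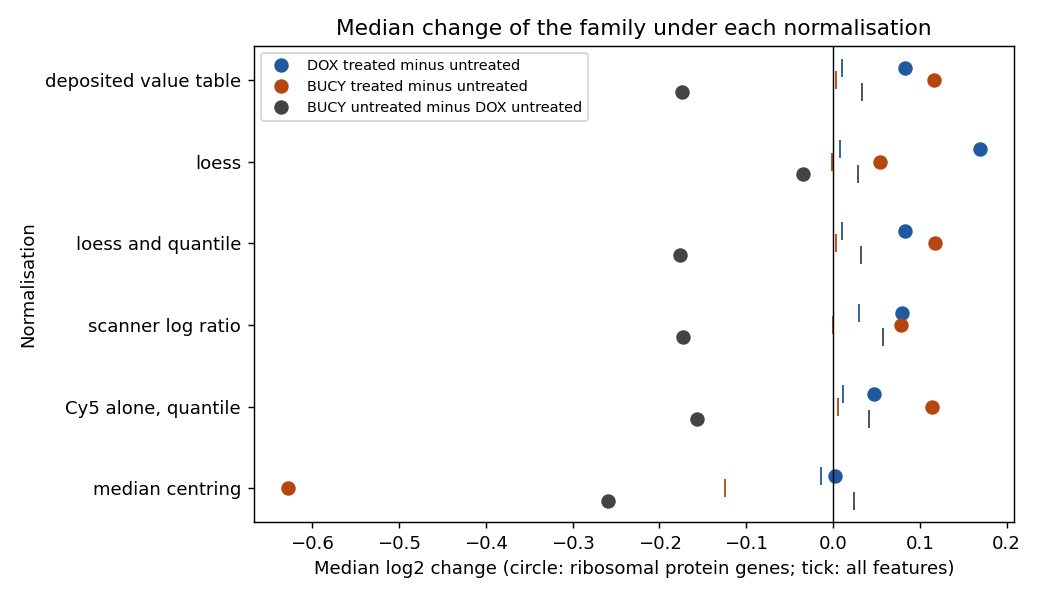
Median log2 change of the 37 ribosomal protein genes (circles) and of all features tested (ticks) under each normalisation, for the DOX effect, the BUCY effect and the untreated groups. The deposited table gives 0.08, 0.12 and -0.17 and median centring gives 0.00, -0.63 and -0.26, so the direction of the family in the BUCY comparison flips with the scaling.

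Probes of one gene gave a further check, since 187 probes were named for the 37 genes. Ribosomal protein genes have many near-identical processed copies in mammalian genomes, so a probe may read more than the named gene. RPL5, RPL13A, RPL7L1 and RPL26L1 had all their probes on one side in each of the DOX, BUCY and untreated comparisons. RPS4X, the X-linked small-subunit protein, had 14 probes, of which 14 were higher with DOX (0.12 to 0.35), although its brightest probe was at 0.14 (adjusted p = 0.413). RPL6 went against its brightest probe: that probe was 0.03 with BUCY and -0.04 between the untreated groups, whereas the median of its 13 probes was -0.22 and 0.27.

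**Figure D5:**
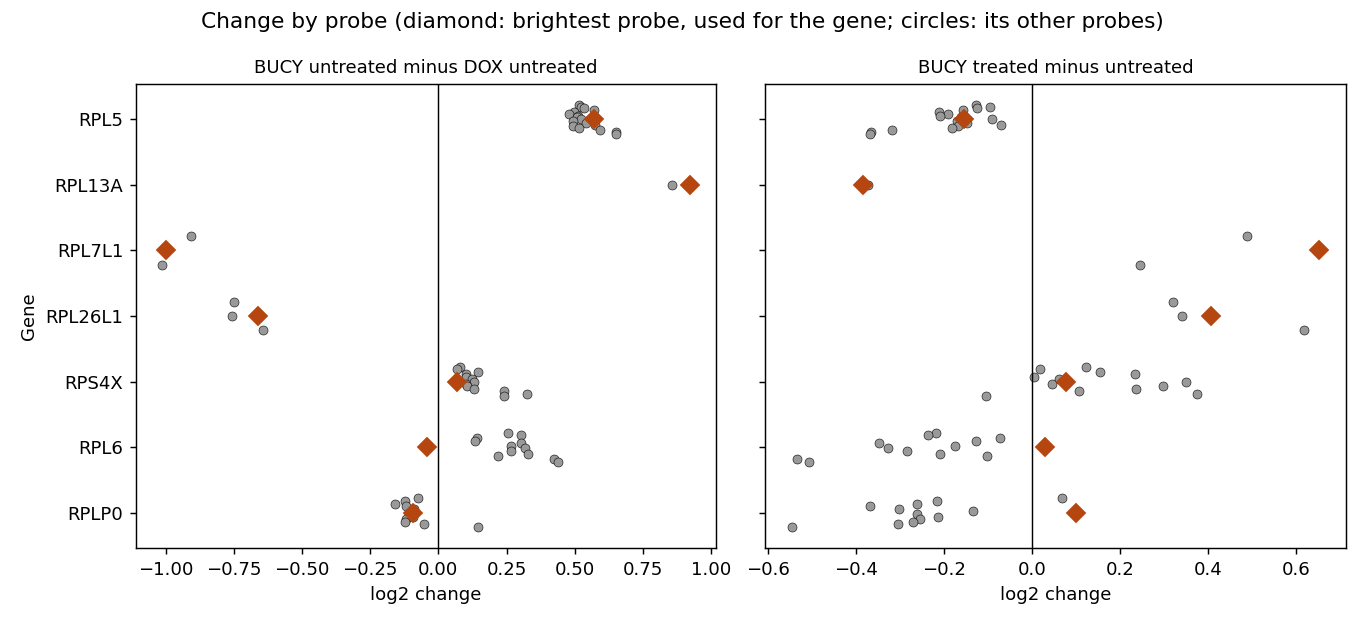
log2 change of each probe of 7 ribosomal protein genes in the BUCY effect and between the untreated groups; diamonds mark the brightest probe, which stands for the gene, and circles the others. The 18 RPL5 probes lie between 0.48 and 0.65 in the untreated comparison, while in the BUCY panel the brightest probes of RPL6 and RPLP0, at 0.03 and 0.10, are the highest of their genes.

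Members varied together within groups, but loosely. With group means removed, Pearson's r between pairs of members over the 22 arrays had a median of 0.31 and ran from -0.61 to 0.91, and 512 of 666 pairs were positive. These arrays share the pool, the slides and the normalisation, so the figure is a description. RPSA had the highest median r with the others, 0.52, and the highest single pair was RPSA with RPL23. RPS3 and RPS12 (r = 0.89), RPS12 and RPS23 (0.87), RPL10A and RPL11 (0.86) and RPL14 and RPL30 (0.85) were also close. RPL3, near the peptidyl transferase centre, stood apart with a median r of -0.12, as did RPL10 at -0.01 and RPS15 and RPS26 at 0.02 and 0.03. RPL13A was most like RPS20 (0.60), and RPL7L1 most like RPL27 (0.60). RPS26 and RPL14 were the pair at -0.61.

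The rest of the translation machinery was read through lists drawn from general knowledge, with earlier results of these data known. Ribosome assembly factors, which work in the nucleolus, had 10 of 84 listed genes on the array. With BUCY all 10 were higher (median 0.41) and 4 passed: DKC1, the pseudouridine synthase of ribosomal RNA, rose by 0.59 (adjusted p = 0.0154), NOC3L by 0.44 (adjusted p = 0.0273) and BYSL by 0.53 (adjusted p = 0.0285). Between the untreated groups all 10 were lower (median -0.69) and 8 passed, NIP7 at -1.13 (adjusted p = 2.36e-05). With DOX 9 of 10 were lower and 0 passed (lowest adjusted p 0.185, for NIP7), and 3 passed in the BUCY effect minus the DOX effect.

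Mitochondrial ribosomal proteins, which build a separate ribosome, had 7 genes. With BUCY 6 were higher and 4 passed, MRPL24 at 0.55 (adjusted p = 0.00203) and MRPL58 at 0.63 (adjusted p = 0.00443); between the untreated groups all 7 were lower and 6 passed, MRPL58 at -0.88 (adjusted p = 5.29e-05). Their medians, 0.37 with BUCY and -0.51 between the untreated groups, compare with 0.12 and -0.17 for the cytosolic ribosome, and whether the lists differ was not tested. Translation factors, 11 genes, split: with BUCY EIF4G1, the scaffold of the cap-binding complex, and the helicase EIF4A1 rose (1.48 and 0.61, adjusted p = 0.0369 and 0.0465), and EIF1B and EIF4A2 fell (-0.80 and -0.99, adjusted p = 0.00734 and 0.013). Between the untreated groups 3 were higher, led by EIF4EBP2 at 1.29 (adjusted p = 1.73e-07), and 4 lower, led by EEF1E1 at -1.26 (adjusted p = 1.11e-05). Of the 3 ribosome-bound proteins measured, TPT1, also translated under growth control, was lower with BUCY (-0.46, adjusted p = 0.0265) and higher in the untreated BUCY piglets (0.79, adjusted p = 0.000165), while RACK1 did not pass in any comparison. Of 4 growth-signalling genes 0 passed in any comparison.

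The p53 list, which bears on the MDM2-binding members, had 8 genes tested. With BUCY 3 rose: SFN by 2.37 (adjusted p = 0.0017), MDM2 by 0.75 and BTG2 by 0.58. With DOX CCNG1 rose by 0.68 (adjusted p = 0.00228). Between the untreated groups CCNG1 was higher (0.79, adjusted p = 4.85e-05), and SFN and MDM2 were lower (-2.29 and -0.79).

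Markers of dividing cells changed in the same comparisons. Of 8 tested, 7 rose with BUCY (median 1.06; BIRC5 1.75, CCNB1 1.74 and CDK1 1.35) and all 8 were lower in untreated BUCY than in untreated DOX piglets (median -1.61). Their mean level per array was -1.46 to -0.81 in untreated BUCY piglets, -0.49 to 0.54 after BUCY, 0.22 to 0.86 in untreated DOX piglets and -0.36 to 0.36 after DOX. T and NK cell markers were lower with BUCY in all 14 genes, 12 past the threshold, at mean levels of -1.51 to -1.09 against -0.29 to 0.46. Of 10 enterocyte markers 5 fell with BUCY, at mean levels of -2.03 to 0.60 against -0.02 to 0.61, and 4 were higher and 1 lower in untreated BUCY piglets. Of the other marker lists, macrophages and myeloid cells had 2 of 10 genes up with DOX, 2 up and 2 down with BUCY and 4 lower between the untreated groups, and goblet and Paneth cells had 1 of 4 up and 1 down with BUCY and 2 lower between the untreated groups. Smooth muscle and fibroblasts had 1 of 7 down with DOX and 2 up with BUCY. B and plasma cells had 1 of 2 down with DOX, 1 up with BUCY and 2 lower between the untreated groups, and pancreas had 1 of 5 down with BUCY, and 1 higher and 1 lower between the untreated groups. The part of any of these cells in the ribosomal protein changes was not tested.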

How the data were processed

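RNA from the small intestine of 22 piglets was hybridised to 2-colour Agilent pig arrays, on 7 slides. The deposited scanner files hold intensity values and log10 ratios, written by Feature Extraction 10.7.3.1 per the file headers. The deposited value table holds log2 ratios (Cy5 piglet over Cy3 pool) whose normalisation is not given in the sources used here; ratios made with normexp (offset 50), loess and quantile normalisation correlated with it at 0.999 to 1.00 per array, with slopes of 0.994 to 1.01. Its column medians lay between 0.00 and 0.02. No dyes were swapped, so a dye effect common to all arrays cancels only between groups.

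Probes were named through accessions in RefSeq tables of Sscrofa11.1 (6700 of 43603 probes); the brightest probe stood for a gene. Features well above background in Cy5 on at least 5 arrays were fitted in limma 3.58.1 (R 4.3.3) with 4 group means, and p-values were Benjamini-Hochberg adjusted over 24767 features at 0.05. They measure the spread between piglets within groups. With each piglet on its own array, that spread includes differences of slide, scan day and hybridisation. The procedure was tested on simulated data. Figures were drawn with matplotlib 3.10.9. Alternatives were other normalisations, background handling, slide blocks, array weights and left-out arrays.

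Members and gene lists were chosen with earlier results of these data known. Every member entered the counts and medians; the values of one member and of one listed gene are not reported here. Named in full were the stalk proteins and RPSA, members past the threshold (at most 8 per comparison by p), and the 3 highest and 3 lowest changes; from each list, at most 3 genes past the threshold. Some further genes were named after their values were seen. RefSeq served for names only. No sequence table was used, so no sequences are given, and no genome positions are given because the array files name no build.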

Additional observations from a re-analysis of the deposited data

Results flagged for a closer look

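In 5 of 152 groups of 5 or 6 piglets that were looked at, 1 piglet stood apart from the rest of its group, where chance flags about 1 in 20 groups. RPSA was at -0.42 in untreated BUCY array 1, with the next value at -0.29. RPL35 was at -0.17 in untreated BUCY array 5, above the next at -0.46. In BUCY-treated array 1, RPL5 was at 0.31 with the next at 0.09, and RPL29 at 0.22 with the next at 0.07. RPS15 was at -0.25 in BUCY-treated array 2, below the next at 0.09.

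The change from untreated to treated piglets differed between the experiments for 3 genes by limma's test of the difference itself. Drug and baseline of the experiment cannot be told apart in it. The BUCY effect minus the DOX effect was -1.07 for RPL13A, 0.89 for RPL7L1 and 0.69 for RPL26L1.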

How the results depend on the processing

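No paired analysis was possible because replicate numbers only follow array order, the titles carry animal names, and nothing pairs piglets across groups. Counts below are members called of 37, against 1 with DOX, 12 with BUCY, 3 for the difference between the drugs and 14 between the untreated groups; medians are log2. After loess alone (Aquantile, which leaves ratios unchanged, gave the same values) the untreated count was 6 (16.2%, against 25.2% of features). The untreated median was -0.0342, and the median of the difference was -0.0874. Without background correction these were 6 (16.2%, against 25.6%), -0.0305 and -0.0811. Under median centring the counts were 0, 4, 0 and 2 (0%, 10.8%, 0% and 5.41%, against 0.359%, 13.1%, 0.42% and 15.5% of features). The medians of BUCY and of the difference were then -0.63 and -0.61. Agilent's own ratio gave 9 between the untreated groups (24.3%, against 23.3% of features). Cy5 alone gave 7 with BUCY (18.9%, against 13.2%), 1 for the difference (2.7%, against 3.04%) and 7 between the untreated groups (18.9%, against 17.4%). With BUCY the count was 5 with slide as a fixed block (13.5%, against 9.22% of features) and 7 with array weights (18.9%, against 12.4%). It was 1 with only its groups fitted (2.7%, against 3.09%) and 3 without the suffixed arrays (8.11%, against 5.76%). It was 1 without treated arrays 2 and 3 (2.7%, against 4.59%) and 5 without slide 5 (13.5%, against 9.97%), an alternative chosen after seeing the data. The difference gave 0 without the suffixed arrays (0%, against 1.25%), 1 without treated arrays 2 and 3 (2.7%, against 2.66%) and 1 without slide 5 (2.7%, against 3.44%). DOX gave 3 with array weights (8.11%, against 4.52%), namely RPS10, RPL13A and RPLP0. Leaving out 1 array at a time gave counts of 1 to 2 with DOX (median 0.06 to 0.13), 5 to 13 with BUCY (0.08 to 0.17), 3 to 4 for the difference (-0.00 to 0.10) and 10 to 16 between the untreated groups (-0.21 to -0.13). The share of features called in these left-out fits is not given here, so a change particular to the family cannot be read from the counts. Under median centring BUCY turned to the other side for RPS18 (-0.33), RPS10 (-0.19), RPSA (-0.34), RPL27 (-0.19), RPS21 (-0.35), RPL36AL (-0.19), RPL26L1 (-0.13) and RPL22 (-0.38), and RPS28 turned on Cy5 alone (0.15). The cause of these changes was not tested. Probes of near-identical copies and the number of arrays limit what single genes show.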
